A study of Mus musculus with 6 samples.

Results

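The genes described here are 30 genes of cholesterol and fatty acid synthesis, chosen by symbol among the 23099 gene symbols of the pancreas RNA-seq files. They comprise 16 enzymes of the sterol branch, 10 enzymes of the fatty acid branch and 4 regulators, and all 30 symbols were found once each. The libraries are polyadenylated RNA of whole pancreas from 8-week-old mice, 3 from Ela1-Myc mice and 3 from wild-type (WT) mice. In Ela1-Myc mice the elastase 1 promoter, active in acinar cells, drives the transcription factor gene Myc, so the transgene is aimed at those cells while the measurement covers every cell type of the organ. Neither the strain nor the use of a separate animal for each library is stated in the labels, and p-values cover only the spread among these samples. The single comparison, Ela1-Myc against WT, asks how the pancreas differs when Myc stays active in acinar cells.

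Cells build cholesterol from acetyl-CoA by way of mevalonate, isoprenoid units, squalene and lanosterol, and they build fatty acids from citrate-derived acetyl-CoA through malonyl-CoA and palmitate, followed by desaturation and elongation. Both branches are switched on by the SREBP transcription factors, which are held in the endoplasmic reticulum by the escort protein SCAP and the sterol-sensing INSIG proteins until sterols run low. Srebf1 encodes SREBP-1, known chiefly for fatty acid synthesis, and Srebf2 encodes SREBP-2, known chiefly for cholesterol synthesis. The acinar cell makes large amounts of membrane for its secretory apparatus, while adipocytes, which lie between pancreatic lobules, are known for very high levels of the fatty acid enzymes.

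Promoter sequences were set beside the expression values because SREBP is known to act at sterol response elements together with the factors NF-Y and Sp1, and MYC at E-boxes. RefSeq windows (GRCm38.p6) of 300 bases, 250 before and 50 after a gene's start, were given for 24 of the 30 genes, 31 windows in all. Both strands were searched for TCACNCCAC (like a sterol response element), CACGTG (E-box), CCAAT (NF-Y) and GGGCGG (Sp1), and no matches of different motifs overlapped in the members' windows. CCAAT was found in 12 of 16 sterol branch windows, 4 of 8 fatty acid branch windows and 4 of 7 regulator windows, against 37.4% of all 32851 windows. GGGCGG was found in 13 of 16, 3 of 8 and 6 of 7 windows of the same lists, against 35.7% of all windows. The E-box was found in 2 of 16, 1 of 8 and 3 of 7 windows, against 7.15% of all windows, in the genes Dhcr7, Hsd17b7, Elovl5, Insig1 and Scap. The 2 windows of Scap overlap and hold the same E-box and a shared GGGCGG match. By gene, the E-box was found in 2 of 4 regulators and GGGCGG in 4 of 4. TCACNCCAC was found in a single window, that of Hmgcs1, against 1.24% of all windows. A match is a description of the letters only, and its absence says nothing of the factors. The 250 bases upstream of the start are shown, 5′ to 3′ on the gene's own strand, for Idi1 at chr13:8885356-8885605 (plus strand) and Cyp51 at chr5:4104698-4104947 (minus strand), enzymes that passed the test on both scales used here. Those of Srebf2 at chr15:82147019-82147268 (plus strand) are shown for the same reason, those of Hmgcs1 at chr13:119690101-119690350 (plus strand) for its match to TCACNCCAC, and those of Elovl5 at chr9:77917115-77917364 (plus strand) as a fatty acid branch window with an E-box. Capitals mark the motif matches on either strand.
Idi1: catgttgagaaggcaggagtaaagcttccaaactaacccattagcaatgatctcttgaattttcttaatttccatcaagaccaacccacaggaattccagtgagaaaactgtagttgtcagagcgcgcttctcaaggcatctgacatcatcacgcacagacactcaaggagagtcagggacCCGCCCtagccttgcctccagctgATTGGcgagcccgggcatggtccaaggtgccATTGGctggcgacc
Cyp51: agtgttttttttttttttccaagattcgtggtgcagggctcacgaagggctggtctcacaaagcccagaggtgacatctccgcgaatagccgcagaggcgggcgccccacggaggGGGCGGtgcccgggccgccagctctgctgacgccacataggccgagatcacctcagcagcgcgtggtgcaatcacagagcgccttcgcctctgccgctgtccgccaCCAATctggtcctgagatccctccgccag
Hmgcs1: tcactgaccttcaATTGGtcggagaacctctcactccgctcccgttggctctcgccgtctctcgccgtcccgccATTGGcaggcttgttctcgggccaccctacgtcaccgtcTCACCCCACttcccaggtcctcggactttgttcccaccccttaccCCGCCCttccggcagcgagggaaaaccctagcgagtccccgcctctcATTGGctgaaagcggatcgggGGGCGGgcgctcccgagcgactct
Srebf2: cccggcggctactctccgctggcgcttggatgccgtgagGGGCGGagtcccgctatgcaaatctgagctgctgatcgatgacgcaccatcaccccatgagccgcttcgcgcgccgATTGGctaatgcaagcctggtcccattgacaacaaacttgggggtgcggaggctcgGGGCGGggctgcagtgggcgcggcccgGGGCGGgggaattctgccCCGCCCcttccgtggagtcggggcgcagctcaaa
Elovl5: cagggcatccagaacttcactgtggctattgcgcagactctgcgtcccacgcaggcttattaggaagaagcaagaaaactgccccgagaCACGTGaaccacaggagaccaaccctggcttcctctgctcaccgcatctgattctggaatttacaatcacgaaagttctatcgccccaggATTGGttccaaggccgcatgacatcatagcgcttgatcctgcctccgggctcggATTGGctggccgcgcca
In this stretch Idi1 carries a pair of CCAAT matches and an Sp1 match, and Cyp51 carries 1 match of each. Hmgcs1 carries 3 CCAAT and 2 Sp1 matches beside its TCACNCCAC match. Srebf2 has 1 CCAAT match and 4 Sp1 matches, and the Elovl5 stretch has 1 E-box and 2 CCAAT matches but no GGGCGG.

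Values are the authors' adjusted FPKM (fragments relative to transcript length and to all mapped fragments, with an adjustment of unstated nature), divided here by 100000, and the read depth behind them is unknown. Summed values ranged from 631304 to 1089562 in Ela1-Myc libraries and from 669948 to 1949735 in WT libraries. An exact 0 in these files is not evidence of absence: of 8802 tested genes, none to 29 were listed at 0 in Ela1-Myc libraries and 592 to 1426 in WT libraries. Over all symbols, before the filter, the order was the other way, with 5240 to 6102 at 0 in Ela1-Myc libraries and 2195 to 4713 in WT libraries. However, 4463 rows at 0 in all Ela1-Myc libraries held 1 shared positive value in each WT library, with no member among them. Fewer zeros in WT thus need not mean more genes detected. The RNA integrity number was 8.8, 7.2 and 8.3 in Ela1-Myc replicates 1 to 3 and 7.3, 7.3 and 7.1 in WT replicates 1 to 3, while the protocol text states a minimum that 5 of these 6 libraries do not reach; the part of RNA quality in the results was not tested. On the deposited scale the median tested gene lay 1.22 log2 units higher in Ela1-Myc, so each result is also given on values scaled by medians of ratios (after scaling), where the median gene lay at 0.23. The test was limma on log2(value + 1), applied to genes that averaged 1 or more across the libraries, and "called" means a Benjamini-Hochberg adjusted p under 0.05 over all tested genes. On the deposited scale 70.2% of tested genes were called higher in Ela1-Myc and 0.239% lower, and after scaling 18.3% were called higher and 8.02% lower. Myc stood at 52.0, 34.4 and 34.2 in Ela1-Myc replicates 1 to 3, against 4.10 in WT replicate 2 and a listed 0 in WT replicates 1 and 3, with no overlap between the groups.

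**Figure D1:**
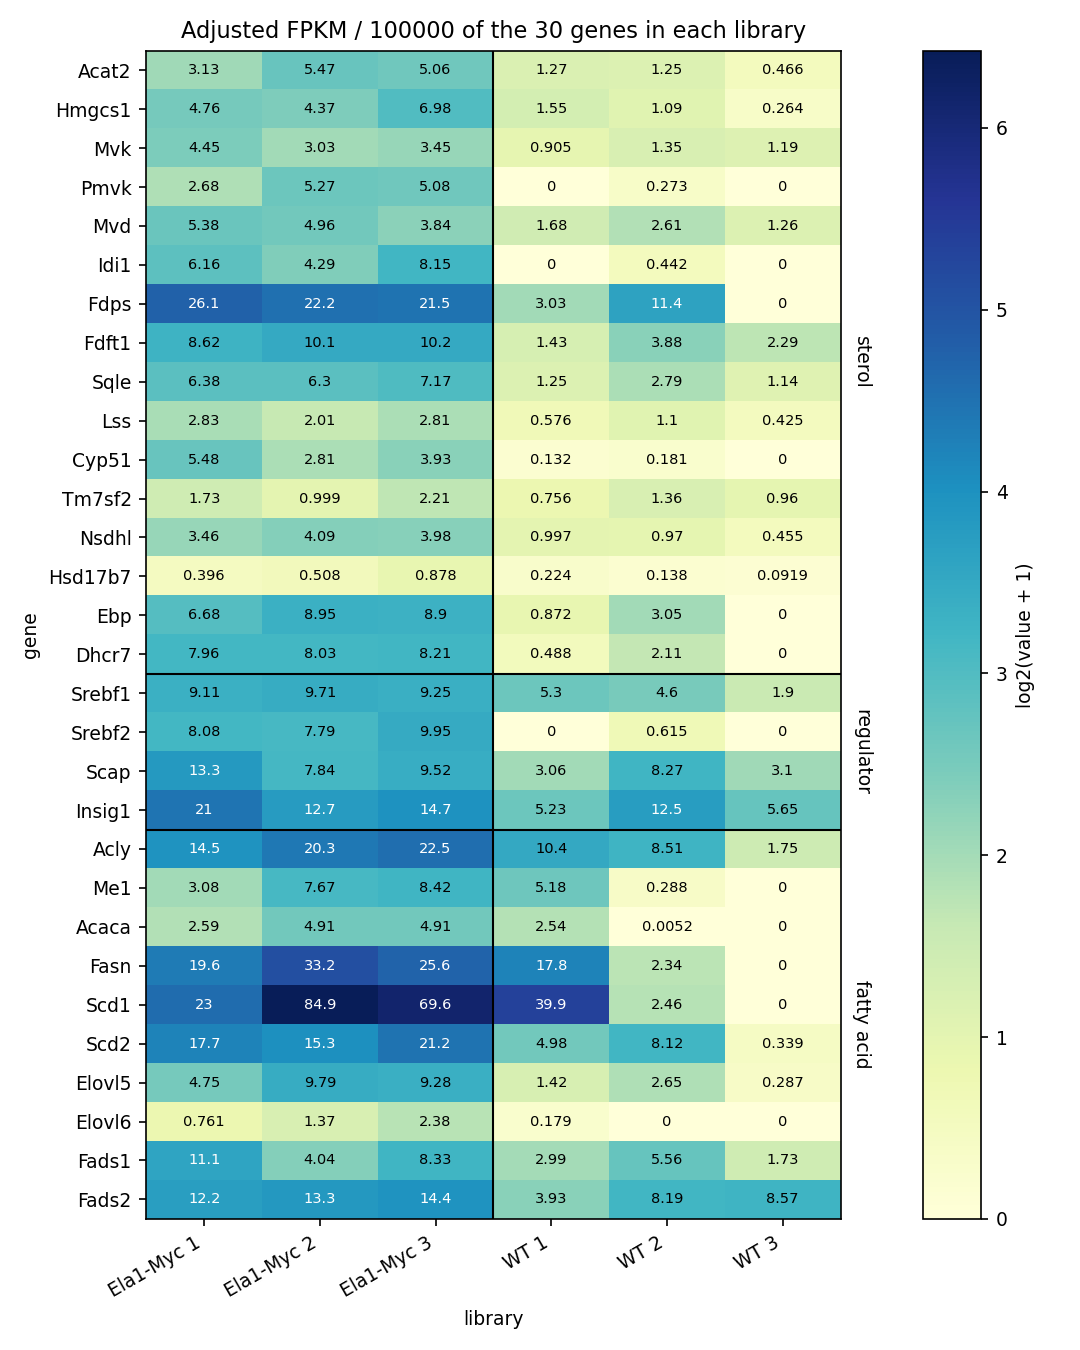
Adjusted FPKM divided by 100000 of the 30 genes (rows, grouped by branch) in each of the 3 Ela1-Myc and 3 WT libraries (columns), with colour on a log2(value + 1) scale. WT replicate 3 lists 12 of the 30 genes at 0, and no Ela1-Myc library lists any.

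Of the 30 genes 28 passed the filter. Hsd17b7 and Elovl6 did not. Of the 28, 10 had a WT mean under 1 and passed the filter through their Ela1-Myc values, so a higher level in Ela1-Myc was largely built into them. They are the sterol enzymes Acat2, Hmgcs1, Pmvk, Idi1, Lss, Cyp51, Nsdhl and Dhcr7, the regulator Srebf2 and the fatty acid enzyme Acaca.

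All 6 enzymes from acetyl-CoA to the isoprenoid units rose in Ela1-Myc by the deposited values, and 2 of them, Pmvk and Idi1, also after scaling, beside 70.2% and 18.3% of all tested genes. Both have a WT mean under 1, as do Acat2 and Hmgcs1, which likewise passed the filter through their Ela1-Myc values. Acat2, which joins acetyl-CoA units, stood at 3.13, 5.47 and 5.06 in Ela1-Myc replicates 1 to 3, against 1.27, 1.25 and 0.466 in WT replicates 1 to 3. Hmgcs1, the cytosolic HMG-CoA synthase (chromosome 13, 119690462 to 119708077, GRCm38), stood at 4.76, 4.37 and 6.98 in Ela1-Myc, against 1.55, 1.09 and 0.264 in WT. For both genes every Ela1-Myc library lay above every WT library on the deposited scale, and after scaling WT replicate 1 exceeded at least 1 Ela1-Myc library. Their log2 changes were 1.48 ± 0.323 for Acat2 and 1.73 ± 0.345 for Hmgcs1 (SE; limma adjusted p = 0.00145 and 0.000771), against 0.47 and 0.71 after scaling (adjusted p = 0.323 and 0.234).

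The mevalonate kinases did not move alike after scaling. Mvk, the first of them, stood at 4.45, 3.03 and 3.45 in Ela1-Myc and at 0.905, 1.35 and 1.19 in WT. Pmvk, which adds the next phosphate (chromosome 3, 89459118 to 89469009), stood at 2.68, 5.27 and 5.08 in Ela1-Myc, against 0.273 in WT replicate 2 and a listed 0 in WT replicates 1 and 3. Mvd, the decarboxylase that yields the isoprenoid unit, stood at 5.38, 4.96 and 3.84 in Ela1-Myc and at 1.68, 2.61 and 1.26 in WT. The 3 genes had separate groups on the deposited scale, and only Pmvk kept them separate after scaling. Pmvk rose by 2.26 ± 0.287 log2 units (SE; limma adjusted p = 3.65e-05) and by 1.65 ± 0.242 after scaling (adjusted p = 0.00548). Mvk and Mvd rose by 1.11 and 1.02 on the deposited scale (adjusted p = 0.00454 and 0.0147). After scaling their changes were 0.09 and -0.08, with 95% intervals of -0.383 to 0.572 and -0.676 to 0.507. Idi1, the isomerase that makes the second isoprenoid unit (chromosome 13, 8885606 to 8892396), stood at 6.16, 4.29 and 8.15 in Ela1-Myc, against 0.442 in WT replicate 2 and a listed 0 in WT replicates 1 and 3. It rose by 2.64 ± 0.307 (limma adjusted p = 1.95e-05) and by 1.97 ± 0.223 after scaling (adjusted p = 0.00248).

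From the isoprenoid units to squalene and lanosterol, levels were higher in every Ela1-Myc library and the calls rested on the deposited scale. Fdps, farnesyl diphosphate synthase and by mean the most abundant sterol enzyme per length in both groups (chromosome 3, 89093588 to 89101967), stood at 26.1, 22.2 and 21.5 in Ela1-Myc, against 3.03 and 11.4 in WT replicates 1 and 2 and a listed 0 in WT replicate 3. Fdft1, squalene synthase, stood at 8.62, 10.1 and 10.2 in Ela1-Myc and at 1.43, 3.88 and 2.29 in WT. Sqle, squalene epoxidase, a slow step of the pathway, stood at 6.38, 6.30 and 7.17 in Ela1-Myc and at 1.25, 2.79 and 1.14 in WT. Fdft1 and Sqle kept every Ela1-Myc library above every WT library after scaling too, while Fdps did not, since WT replicate 2 reached 11.8 on the scaled values, against 10.8 in Ela1-Myc replicate 3. Lss, which closes squalene epoxide into lanosterol, stood at 2.83, 2.01 and 2.81 in Ela1-Myc and at 0.576, 1.10 and 0.425 in WT. Sqle averaged 6.61 ± 0.48 in Ela1-Myc and 1.72 ± 0.921 in WT (SD, n = 3 each), a 3.84-fold higher mean, and Fdft1 had a 3.80-fold higher mean. The log2 changes of Fdps, Fdft1, Sqle and Lss were 2.72, 1.64, 1.53 and 1.07 (limma adjusted p = 0.00454, 0.00321, 0.00222 and 0.00365). After scaling they were 1.59, 0.43, 0.41 and 0.24, and none was called (adjusted p = 0.22, 0.155, 0.157 and 0.347). The 95% interval of Fdps after scaling ran from -0.538 to 3.73 and thus held both no change and the deposited-scale change. The locus of Lss shares 8064 bases with that of 4930483K19Rik and the locus of Fdft1 774 bases with that of Ctsb. Me1 shares 473 bases with A330041J22Rik, Srebf1 107 with Rai1 and Tm7sf2 9 with 1110014N23Rik, and the use of strand in read assignment is not stated.

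The enzymes that turn lanosterol into cholesterol split into called and uncalled genes after scaling. Cyp51, the lanosterol demethylase (chromosome 5, 4080674 to 4104697), stood at 5.48, 2.81 and 3.93 in Ela1-Myc, against 0.132 and 0.181 in WT replicates 1 and 2 and a listed 0 in WT replicate 3. Dhcr7, the last reductase of the pathway (chromosome 7, 143823167 to 143848410), stood at 7.96, 8.03 and 8.21 in Ela1-Myc, against 0.488 and 2.11 in WT replicates 1 and 2 and a listed 0 in WT replicate 3. Both had separate groups on both scales, and the Ela1-Myc values of Dhcr7 had an SD of 0.131 (n = 3). Cyp51 rose by 2.17 ± 0.275 log2 units (SE; limma adjusted p = 3.64e-05) and by 1.49 ± 0.216 after scaling (adjusted p = 0.00523). The 2 genes were called on both scales. Dhcr7 rose by 2.44 ± 0.399 (adjusted p = 0.000203) and by 1.56 ± 0.41 after scaling (adjusted p = 0.0344), but its scaled call was lost without WT replicate 1 (0.0555) and without Ela1-Myc replicate 1, 2 or 3 (0.081, 0.114 and 0.0963), and with a pseudocount of 0.1 (0.127).

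Ebp, the sterol isomerase, stood at 6.68, 8.95 and 8.90 in Ela1-Myc, against 0.872 and 3.05 in WT replicates 1 and 2 and a listed 0 in WT replicate 3. Nsdhl, a dehydrogenase of the demethylation steps, stood at 3.46, 4.09 and 3.98 in Ela1-Myc and at 0.997, 0.97 and 0.455 in WT, a 4.76-fold higher mean in Ela1-Myc. Both were called on the deposited scale, by 2.21 and 1.43 log2 units (limma adjusted p = 0.00088 and 0.000746), and neither was called after scaling (1.27 and 0.47; adjusted p = 0.11 and 0.225). Ebp did pass after scaling without WT replicate 2 (adjusted p = 0.0449), and Hmgcs1 and Nsdhl did so without WT replicate 1 (0.0209 and 0.0401). Tm7sf2, a sterol reductase, was the exception of the branch, at 1.73, 0.999 and 2.21 in Ela1-Myc and at 0.756, 1.36 and 0.96 in WT. Its groups overlapped on the deposited scale (log2 change 0.37, limma adjusted p = 0.227), and after scaling every Ela1-Myc library lay below every WT library without a call (-0.46, adjusted p = 0.091). Hsd17b7, another reductase, was too low to be tested, at 0.396, 0.508 and 0.878 in Ela1-Myc and at 0.224, 0.138 and 0.0919 in WT.

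In counts, 14 of the 15 tested sterol enzymes were called higher on the deposited scale, against the background of 70.2% of tested genes, and none lower, against 0.239%. Mvd lost that call without WT replicate 3 (limma adjusted p = 0.0865) and without Ela1-Myc replicate 1 or 2 (0.0645 and 0.0519). Of the 15 tested, 8 had a WT mean under 1 and passed the filter through their Ela1-Myc values. A higher level in Ela1-Myc was largely built into them. After scaling 4 of 15 were called higher, Pmvk, Idi1, Cyp51 and Dhcr7, and none lower, against 18.3% and 8.02% of tested genes. Their median log2 change was 1.64 on the deposited scale and 0.47 after scaling, beside 1.22 and 0.23 for all tested genes. The 4 called after scaling each had a WT mean under 1 and at least 1 listed 0 in WT, so they passed the filter through their Ela1-Myc values and their direction was largely fixed by it. Among genes above 0 in all 6 libraries, 9 sterol enzymes were tested after scaling and none was called by limma in either direction, against 10.5% of such genes higher and 11.2% lower. Groups without overlap, Ela1-Myc higher, were seen for 15 of the 16 sterol enzymes on the deposited scale and for 7 after scaling, against 75.3% and 30.4% of tested genes. Ela1-Myc lay wholly below WT for none of them on the deposited scale and for Tm7sf2 after scaling, against 0.534% and 17.2% of tested genes. In whole tissue, fewer cells of a type and less RNA per cell cannot be told apart.

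Among the regulators Srebf2 stood apart. Srebf2 (chromosome 15, 82147269 to 82204960) stood at 8.08, 7.79 and 9.95 in Ela1-Myc, against 0.615 in WT replicate 2 and a listed 0 in WT replicates 1 and 3. The groups stayed apart on both scales. Srebf2 rose by 3.03 ± 0.317 log2 units (SE; limma adjusted p = 8.64e-06) and by 2.32 ± 0.234 after scaling (adjusted p = 0.00164). Its WT mean too is under 1, and its locus holds Mir33, a microRNA gene. Srebf1 (chromosome 11, 60199089 to 60220604) stood at 9.11, 9.71 and 9.25 in Ela1-Myc and at 5.30, 4.60 and 1.90 in WT. Its log2 change was 1.15 ± 0.441 (limma adjusted p = 0.0317), which missed the threshold without WT replicate 3 (0.215) or without Ela1-Myc replicate 1, 2 or 3 (0.0864, 0.0884 and 0.108), and turned to -0.14 ± 0.428 after scaling (adjusted p = 0.816).

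The escort gene Scap stood at 13.3, 7.84 and 9.52 in Ela1-Myc and at 3.06, 8.27 and 3.10 in WT, so the groups overlapped. Insig1, itself a known SREBP target and brake on the pathway, stood at 21.0, 12.7 and 14.7 in Ela1-Myc and at 5.23, 12.5 and 5.65 in WT, where WT replicate 2 lay just below the lowest Ela1-Myc library. Neither gene was called on either scale, and the deposited values gave log2 changes of 1.03 and 1.03 (limma adjusted p = 0.0651 and 0.0942), against -0.26 and -0.35 after scaling (0.489 and 0.364). Without WT replicate 2 both passed on the deposited scale (1.43 and 1.38; adjusted p = 0.00311 and 0.00438). The balance of Srebf1 to Srebf2 within a library, on the deposited scale, was 0.15, 0.28 and -0.10 in Ela1-Myc replicates 1 to 3, against 2.66, 1.79 and 1.54 in WT replicates 1 to 3, as the difference of log2(value + 1). The groups did not overlap in it; the contrast was chosen after the values were seen and takes the listed zeros of Srebf2 in WT replicates 1 and 3 as they stand, so in these libraries it depends on the scale and the pseudocount.

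**Figure D2:**
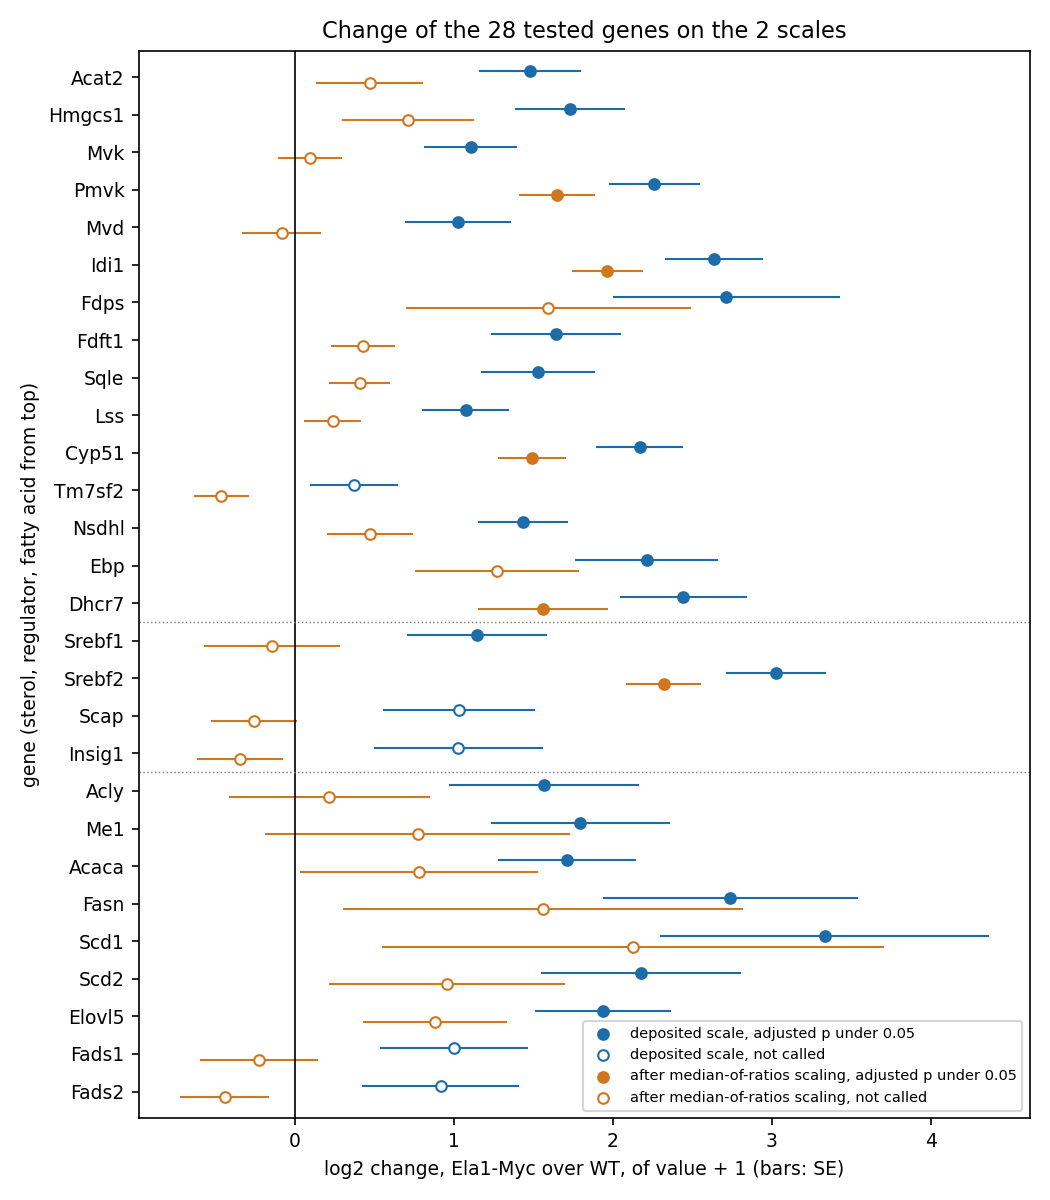
Log2 change of value + 1, Ela1-Myc over WT (x axis, bars are SE, n = 3 libraries a group), of the 28 tested genes on the deposited scale and after median-of-ratios scaling; filled points are called. Only Pmvk, Idi1, Cyp51, Dhcr7 and Srebf2 are filled on both scales, and the bars of Fasn and Scd1 are the widest.

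The summed level per length of the fatty acid branch exceeded that of the sterol branch in every library, which rested on Scd1, Fasn and Acly in Ela1-Myc. Without these 3 genes the fatty acid sum was 52.2, 56.4 and 68.9 in Ela1-Myc and 21.2, 24.8 and 10.9 in WT, below the sterol sum in all Ela1-Myc libraries and in WT replicate 2. The WT libraries differed from each other by more in the fatty acid branch than in the sterol branch. Acly, which splits citrate into acetyl-CoA, stood at 14.5, 20.3 and 22.5 in Ela1-Myc and at 10.4, 8.51 and 1.75 in WT. Acaca, acetyl-CoA carboxylase (chromosome 11, 84195438 to 84401651), stood at 2.59, 4.91 and 4.91 in Ela1-Myc, against 2.54 and 0.0052 in WT replicates 1 and 2 and a listed 0 in WT replicate 3. Fasn, fatty acid synthase (chromosome 11, 120805958 to 120824547), stood at 19.6, 33.2 and 25.6 in Ela1-Myc, against 17.8 and 2.34 in WT replicates 1 and 2 and a listed 0 in WT replicate 3. For Acaca and Fasn, WT replicate 1 lay close to Ela1-Myc replicate 1 on the deposited scale, while the other WT libraries lay far below. Me1, the malic enzyme that supplies NADPH, stood at 3.08, 7.67 and 8.42 in Ela1-Myc, against 5.18 and 0.288 in WT replicates 1 and 2 and a listed 0 in WT replicate 3. Here WT replicate 1 lay within the Ela1-Myc range on the deposited scale.

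The desaturases of saturated fatty acids, Scd1 and Scd2, are close paralogues that may share reads, so their single values are uncertain. Scd1 (chromosome 19, 44394450 to 44407709), by mean the most abundant of the 30 genes in both groups, stood at 23.0, 84.9 and 69.6 in Ela1-Myc, against 39.9 and 2.46 in WT replicates 1 and 2 and a listed 0 in WT replicate 3. Its groups overlapped. In WT its first place rested on replicate 1, since Insig1, Fdps and Acly, among others, lay above it in WT replicate 2. Scd2 stood at 17.7, 15.3 and 21.2 in Ela1-Myc and at 4.98, 8.12 and 0.339 in WT, with no overlap on the deposited scale. The log2 changes of Acly, Acaca, Fasn, Me1, Scd1 and Scd2 were 1.57, 1.71, 2.74, 1.8, 3.33 and 2.18 (limma adjusted p = 0.0303, 0.00362, 0.0083, 0.0121, 0.0111 and 0.00758). After scaling they were 0.21, 0.78, 1.56, 0.77, 2.13 and 0.96, and none was called (adjusted p between 0.339 and 0.814). The scaled 95% intervals ran from -1.43 to 4.55 for Fasn and from -1.63 to 5.89 for Scd1.

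Elongation and polyunsaturated desaturation gave a mixed picture. Elovl5, an elongase of polyunsaturated chains (chromosome 9, 77917365 to 77984519), stood at 4.75, 9.79 and 9.28 in Ela1-Myc and at 1.42, 2.65 and 0.287 in WT, and its groups did not overlap on the deposited scale. It rose by 1.94 ± 0.429 log2 units (SE; limma adjusted p = 0.00155), with 0.88 ± 0.453 after scaling (adjusted p = 0.186). Elovl6, the elongase of palmitate, was too low to be tested, at 0.761, 1.37 and 2.38 in Ela1-Myc, against 0.179 in WT replicate 1 and a listed 0 in WT replicates 2 and 3. Fads1, a front-end desaturase, stood at 11.1, 4.04 and 8.33 in Ela1-Myc and at 2.99, 5.56 and 1.73 in WT, with overlap. Fads2, its partner in the same gene cluster, stood at 12.2, 13.3 and 14.4 in Ela1-Myc and at 3.93, 8.19 and 8.57 in WT, without overlap. Neither desaturase was called on either scale, with log2 changes of 1.00 and 0.92 (limma adjusted p = 0.0661 and 0.107), against -0.23 and -0.44 after scaling (0.661 and 0.27). On the deposited scale Fads1 and Fads2 passed without WT replicate 2 (adjusted p = 0.017 and 0.0218), and Fads1 also without Ela1-Myc replicate 2 (0.045).

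In counts, 7 of the 9 tested fatty acid enzymes were called higher on the deposited scale, against 70.2% of tested genes, and none lower. After scaling limma called none of the 9 in either direction, against 18.3% higher and 8.02% lower. Their median log2 change was 1.8 on the deposited scale and 0.78 after scaling. On the deposited scale Acaca, Fasn and Elovl5 kept their call whichever library was left out. With all libraries included, the WT mean of Acaca (0.850) was under the filter's minimum. A lower Ela1-Myc mean would therefore have kept Acaca out of the test. The WT means of Fasn (6.70) and Elovl5 (1.45) were above that minimum. Acly lost its call without WT replicate 3 (limma adjusted p = 0.237) or any Ela1-Myc library (0.0652, 0.0833 and 0.121), and Scd2 without WT replicate 3 (0.0718). Me1 and Scd1 lost it without WT replicate 2 (0.089 and 0.0692) or Ela1-Myc replicate 3 (0.0689 and 0.0556), and without the last library the count was 4. The scaled count rested on WT replicate 1: without that library 4 of 9, Me1, Acaca, Fasn and Scd1, were called higher after scaling, by 2.10, 1.89, 3.18 and 4.13 log2 units (limma adjusted p = 0.0145, 0.00798, 0.0175 and 0.0169), against 18.5% of all tested genes in that fit. Groups without overlap, Ela1-Myc higher, were seen for 7 of the 10 on the deposited scale and for 1, the untested Elovl6, after scaling, against 75.3% and 30.4% of tested genes. For Elovl6 after scaling the lowest Ela1-Myc library (0.439) lay just above WT replicate 1 (0.426).

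Within each group the libraries with the lowest adipocyte markers also had the lowest fatty acid branch levels. Across groups the levels did not match on the deposited scale, and that comparison depends on the scale. The summed level of 12 adipocyte markers was 218, 779 and 370 in Ela1-Myc replicates 1 to 3, against 368, 50.6 and 15.7 in WT replicates 1 to 3. The summed level of the fatty acid branch was 109, 195 and 187 in Ela1-Myc and 89.3, 38.1 and 12.7 in WT. Both sums were thus highest in WT replicate 1 and lowest in WT replicate 3 among WT, and both were lowest in replicate 1 among Ela1-Myc. None of the 12 markers was at 0 in any Ela1-Myc library or in WT replicate 1, while 5 were at 0 in WT replicate 2 and 9 in WT replicate 3, including the adipokine gene Adipoq there. Adipoq stood at 13.8, 50.2 and 25.5 in Ela1-Myc, against 25.1 and 0.718 in WT replicates 1 and 2. The ratio to Adipoq differed between the enzymes. Scd1 per Adipoq was 1.67, 1.69 and 2.72 in Ela1-Myc and 1.59 and 3.43 in WT replicates 1 and 2. Fasn per Adipoq was 1.42, 0.661 and 1.00 in Ela1-Myc and 0.709 and 3.25 in WT replicates 1 and 2. Acly per Adipoq was 1.05, 0.404 and 0.881 in Ela1-Myc and 0.413 and 11.8 in WT replicates 1 and 2. The far wider spread of the ratio for Acly than for Scd1 rested on WT replicate 2, where Adipoq was only 0.718. With Adipoq at 0, WT replicate 3 gave no ratio. The same ratio for the sterol enzyme Fdps was 1.90, 0.443 and 0.840 in Ela1-Myc and 0.121 and 15.9 in WT. Of 11 tested markers 9 were called higher on the deposited scale, against 70.2% of tested genes. After scaling limma called none in either direction, against 18.3% higher and 8.02% lower. Without WT replicate 1 the scaled count was 8, against 18.5% of all tested genes in that fit. On the deposited scale WT replicate 1 and Ela1-Myc replicate 3 had nearly equal marker sums, while their fatty acid sums were 187 in Ela1-Myc replicate 3 and 89.3 in WT replicate 1. The scaling divides by 0.421 in WT replicate 1 and by 1.988 in Ela1-Myc replicate 3. That reverses the order of the fatty acid sums and sets the marker sums apart. The part of adipocytes in the fatty acid result was not tested.

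**Figure D3:**
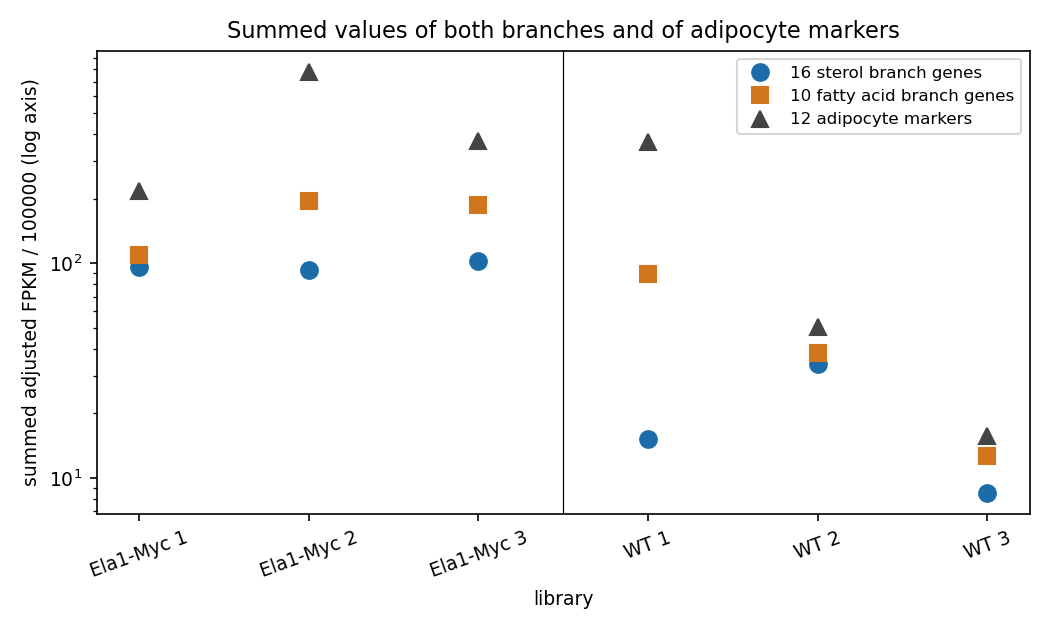
Summed adjusted FPKM divided by 100000 (log axis) of the 16 sterol branch genes, the 10 fatty acid branch genes and 12 adipocyte markers in each library. The sterol sum lies between 93.4 and 102 in Ela1-Myc and between 8.54 and 34.0 in WT, while the fatty acid and adipocyte sums of WT replicate 1 stand well above those of the other WT libraries.

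Set against each other within a library, the branches did not shift in a way that exceeded the spread between libraries. The summed sterol level was 96.2, 93.4 and 102 in Ela1-Myc and 15.2, 34.0 and 8.54 in WT, so the Ela1-Myc libraries lay close together and above all WT libraries. The sterol share of the summed level of both branches was 46.8%, 32.4% and 35.4% in Ela1-Myc and 14.5%, 47.2% and 40.3% in WT. WT replicate 1 had the lowest share and WT replicate 2 the highest, so the Ela1-Myc libraries lay inside the WT range. The mean log2(value + 1) of the sterol branch minus that of the fatty acid branch was -0.99 ± 0.291 in Ela1-Myc and -0.80 ± 0.823 in WT (SD, n = 3 each), a difference of -0.19 that is smaller than the pooled SD of 0.617. Without WT replicate 1 that difference was -0.66, and without WT replicate 3 it was 0.11, so its sign depended on single WT libraries. No p is given for it, as the members were chosen with results of these data known.

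Ranks within a library, which do not depend on scale, placed the fatty acid branch above the sterol branch in all libraries except WT replicate 3. The median sterol enzyme lay at percentile 82.2, 80.9 and 79.4 of all gene symbols in Ela1-Myc and at 81.2, 76.5 and 65.9 in WT. The median fatty acid enzyme lay at percentile 90.9, 90.7 and 90.0 in Ela1-Myc and at 94.7, 83.3 and 37.2 in WT. The 4 regulators had a median percentile of 90.3, 88.3 and 88.5 in Ela1-Myc and of 94.0, 90.7 and 90.4 in WT. By rank, Ela1-Myc libraries resembled each other closely, and the WT libraries were spread out by the fatty acid branch most. WT replicate 3 lists 6 sterol and 5 fatty acid enzymes at 0.

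**Figure D4:**
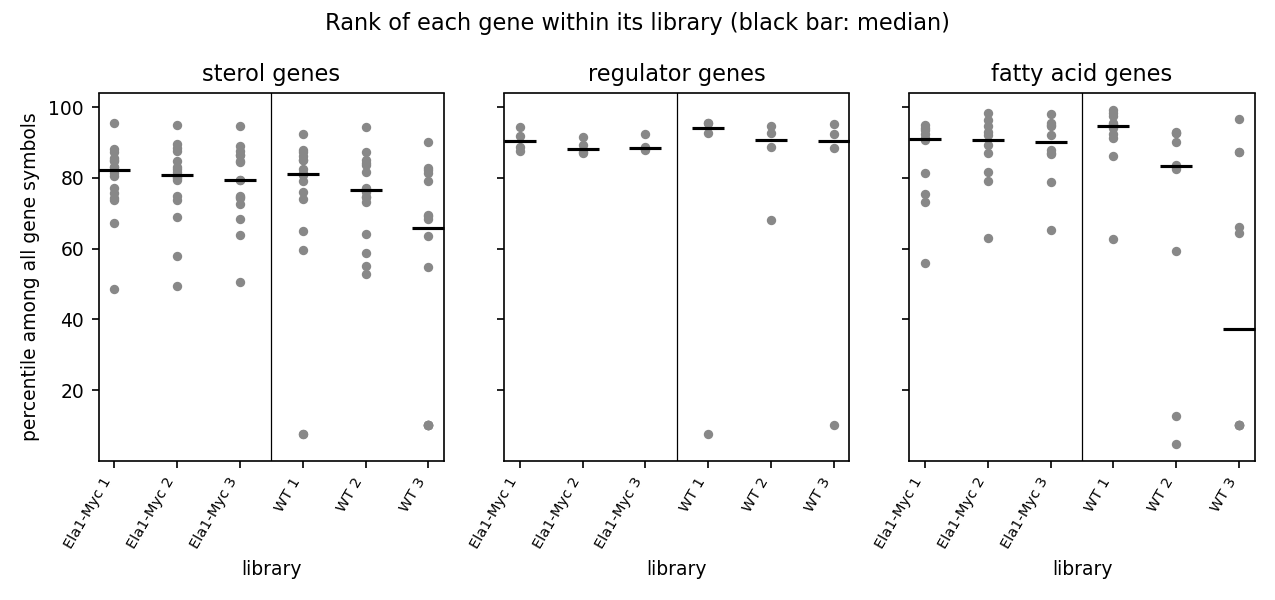
Percentile of each of the 30 genes among all gene symbols of its library (y axis) for sterol, regulator and fatty acid genes, in 3 Ela1-Myc and 3 WT libraries; black bars are medians. The fatty acid median is 90.0 to 90.9 in Ela1-Myc and 37.2 to 94.7 in WT.

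Other genes of sterol synthesis, uptake and export behaved much as the sterol branch did. Of 17 tested among 19, 15 were called higher by the deposited values and 6 after scaling, beside 70.2% and 18.3% of all tested genes. None was called lower in either case, beside 0.239% and 8.02%. Their median log2 change was 1.42 and 0.42, beside 1.22 and 0.23 for all tested genes. Stard4, a cytosolic sterol carrier, had 1.65, 2.65 and 3.10 in Ela1-Myc, against a listed 0 in all 3 WT libraries. Soat1, which esterifies cholesterol, had 1.92, 2.04 and 4.73 in Ela1-Myc, likewise against a listed 0 in all 3 WT libraries. Npc2, which carries cholesterol out of lysosomes, stood at 17.3, 33.9 and 29.9 in Ela1-Myc, against 0.00449 and 3.79 in WT replicates 1 and 2 and a listed 0 in WT replicate 3. Nr1h3, a sterol receptor gene named after its values were seen, had 6.36, 9.44 and 6.94 in Ela1-Myc, against 0.499 and 1.19 in WT replicates 1 and 2 and a listed 0 in WT replicate 3. These 4 genes were called higher on both scales. For Stard4, Soat1 and Nr1h3 the WT average lay below the filter's minimum. Only a higher level in Ela1-Myc could bring these genes into the test, which left little room for the opposite call.

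Markers of other cell types differed in how far they moved with the group. Of all tested genes, 70.2% were called higher on the deposited scale and 18.3% after scaling. Called lower were 0.239% and 8.02%. All 9 macrophage markers were called higher on the deposited scale and 7 after scaling, their summed level ranged from 396 to 1144 in Ela1-Myc and from 0.952 to 49.8 in WT, and Cd68 was at 0 in all WT libraries. Stellate cell markers numbered 6 of 6 higher on the deposited scale and 3 of 6 after scaling. Their sums were 260.7 to 347.8 in Ela1-Myc and 5.84 to 39.4 in WT, where the collagen genes Col1a1 and Col1a2 were at 0 in WT replicates 1 and 3. Acinar markers were present in every library, and 5 of 9 were called lower on the deposited scale and 8 after scaling. Their sums were 177388 to 375392 in Ela1-Myc and 307843 to 976447 in WT. All 7 islet markers were at 0 in WT replicate 1 and none in Ela1-Myc, and 6 of them were called higher on the deposited scale and 2 after scaling. Lymphocyte markers were called higher in 7 of 7 tested cases on the deposited scale and 1 after scaling, duct markers in 4 and 1 of 5, and endothelial markers in 3 and none of 5. The part of these cell types in the results on the 30 genes was not tested.

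Other genes of lipid synthesis and of fatty acid oxidation mostly lost their calls after scaling, as did most of all genes called higher. Of all tested genes, 70.2% were called higher by the deposited values and 18.3% after scaling. Called lower were 0.239% and 8.02%, and the medians were 1.22 and 0.23. Of 16 tested lipid synthesis genes among 21 found, 10 were called higher by the deposited values and none lower, against 1 higher and 1 lower after scaling (medians 1.18 and -0.12). Elovl1, an elongase of very long chains, was called higher on both scales, at 13.0, 17.8 and 13.1 in Ela1-Myc, against 2.07 in WT replicate 2 and a listed 0 in WT replicates 1 and 3. The WT average of Elovl1 lay below the filter's minimum, so this gene entered the test only by being higher in Ela1-Myc. Of 12 tested genes of fatty acid oxidation, 9 were called higher by the deposited values and none lower, against 2 higher and 1 lower after scaling (medians 1.65 and 0.35). The carnitine carrier gene Slc25a20 stood at 3.44, 4.14 and 3.32 in Ela1-Myc, against 0.0213 in WT replicate 2 and a listed 0 in WT replicates 1 and 3. Hadha, a subunit of the mitochondrial trifunctional protein, stood at 15.5, 13.2 and 12.9 in Ela1-Myc and at 1.25, 4.22 and 0.74 in WT. Slc25a20 and Hadha were the 2 oxidation genes called higher on both scales. Slc25a20 too had a WT average below the filter's minimum, while Hadha did not.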

How the data were processed

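Polyadenylated RNA of whole pancreas was sequenced from stranded libraries with spike-in RNA, per the labels' protocols. The authors deposited adjusted FPKM, per the file headers, and the nature of the adjustment is unstated. The submitters' processing notes name GRCm38 (mm10), and per the same notes the tools were Cufflinks 2.0.2, TopHat2 2.0.4, Bowtie, FastQC 0.9.4, CASAVA 1.8 and affy. Starts of gene loci were raised by 1 to count from 1.

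Here every value was divided by 100000. Where a symbol had several rows (187 symbols, no member), its highest row by mean was used. The filter was a mean of 1 or more. The test was limma 3.58.1 (R 4.3.3), two-sided, with trend, on log2(value + 1), with group as the only term, and it was tested on simulated data. Scaling used medians of ratios over tested genes above 0 in every library. For genes with a listed 0 the p-values take that 0 as measured. The members, gene lists, motifs and divisor were chosen with earlier results of these data known. All 30 members are named, and from other lists up to 4 genes called in the same direction on both scales, by smallest scaled p. Some genes that this rule covers are not reported here. Acsl4 (lipid synthesis) and Pdgfrb (stellate cells) matched no symbol. With 3 against 3 libraries an exact permutation test cannot give a p below 0.1. Without counts, the depth is unknown, and intervals cover the spread between libraries only. Figures used matplotlib 3.10.9 (Python 3.11.15).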

Additional observations from a re-analysis of the deposited data

How the results depend on the processing

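Calls on the deposited scale depended on the scaling and the pseudocount. Under median-of-ratios scaling, quantile normalization and equal totals without the pancreatic enzymes, the genes called higher numbered 1614, 996 and 1717 of all genes, 4, 4 and 4 of the sterol branch and 0, 0 and 0 of the fatty acid branch, and those called lower 706, 1758 and 362 of all genes, with 1 sterol gene (Tm7sf2) under quantile normalization. With a pseudocount of 1 on the undivided values 3369 genes were called higher and 6 lower, with 8 sterol and 0 fatty acid genes higher. The genes called on both scales lost their call there, Pmvk, Idi1, Cyp51, Dhcr7 and Srebf2 (limma adjusted p = 0.0506, 0.0524, 0.094, 0.16 and 0.0526), while each of the 3 scalings kept it. A minimum mean of 5 left 3162 genes to test, 2 of the sterol and 6 of the fatty acid branch. Of these 1742 were called higher and 8 lower, with 2 sterol and 4 fatty acid genes higher, and after scaling 694 and 361, with 0 sterol genes. The fatty acid count was 3 with a pseudocount of 0.1 and 2 with no filter. Array weights called 132 genes lower. After scaling 932 genes were called higher with a pseudocount of 0.1, and 735, with 0 sterol genes, among genes above 0 in all 6 libraries.

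Leaving out each library in turn gave 3937 to 7441 higher and 4 to 67 lower calls on the deposited scale, with 4 to 7 fatty acid genes, and after scaling 446 to 1906 and 175 to 678, with 0 to 4 fatty acid genes. The log2 change turned negative under median-of-ratios scaling for Mvd (-0.085), Tm7sf2 (-0.46), Srebf1 (-0.14), Scap (-0.26), Insig1 (-0.35), Fads1 (-0.23) and Fads2 (-0.44). Quantile normalization did so for Mvk (-0.31), Mvd (-0.43), Lss (-0.27), Tm7sf2 (-0.97), Srebf1 (-0.44), Scap (-0.52), Insig1 (-0.57), Acly (-0.0055), Fads1 (-0.47) and Fads2 (-0.66), and equal totals for Tm7sf2 (-0.36), Scap (-0.066), Insig1 (-0.14), Fads1 (-0.051) and Fads2 (-0.24). After scaling the sign turned for Mvk with array weights (-0.00067) and for Srebf1 with a minimum mean of 5 (0.0036). It also turned when single libraries were left out, for Mvk (-0.040 to 0.19), Mvd (-0.30 to 0.10), Srebf1 (-0.58 to 0.28), Acly (-0.53 to 0.84), Scd2 (-0.063 to 1.54) and Fads1 (-0.61 to 0.052). The cause was not tested. Srebf2, Pmvk, Idi1 and Cyp51 kept their scaled call whichever library was left out.

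No paired analysis was possible because the labels number no replicates, and the numbers used here follow accession order. With 3 libraries a group, unknown depth and, among the tested genes, most zeros in WT, differences after scaling of the size of Sqle or Fdft1 were not resolved.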
